A study of Mus musculus with 9 samples.

Results

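The simple epithelial keratins are the intermediate filament proteins of single-layered epithelia such as the ducts of the pancreas. The 6 genes described here, Krt7, Krt8, Krt18, Krt19, Krt20 and Krt23, were chosen by name from the 54453 gene rows of a table of estimated mRNA counts, and all 6 were among the 16169 genes with enough counts to test. They were measured in 9 whole pancreatic tumors of the KPC strain, 5 labelled Scrib null (genotype KPF/+CSF/F, tumors null 7, null 14, null 15, null 18 and null 23) and 4 labelled Scrib WT (genotype KPF/+C, tumors WT 2, WT 3, WT 6 and WT 9). KPC is the usual short name of a mouse model of pancreatic ductal adenocarcinoma that relies on a Cre recombinase, so both groups share that tumor model and the Scrib alleles set them apart. Scrib encodes a scaffold protein of epithelial apical-basal polarity. The sources used here do not give the promoter that drives Cre, the age of the mice or whether each tumor came from its own mouse. The p-values therefore cover the spread between tumors, which may not be that between mice. No compound or other treatment is named in the labels.

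A keratin filament is built from pairs of a type II and a type I chain, and neither chain is stable for long without a partner. Krt7 and Krt8 are type II, and Krt18, Krt19, Krt20 and Krt23 are type I. Krt8 and Krt18 are the basic pair of simple epithelia and are present in acinar and ductal cells of the pancreas, whereas Krt7 and Krt19 mark the ducts and are kept in ductal adenocarcinoma. Krt20 is best known from the lining of the gut, the urothelium and Merkel cells, and Krt23 is a less studied type I keratin.

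On GRCm38 the type II genes lie on chromosome 15, Krt7 at 101411043 to 101430313 on the forward strand and Krt8 at 101996698 to 102004482 on the reverse strand. Krt18, although type I, lies on chromosome 15 as well, at 102028180 to 102032027 on the forward strand, 23.7 kb from Krt8 with no keratin gene between them. The other type I genes lie on the reverse strand of chromosome 11, Krt20 at 99428403 to 99438150, Krt23 at 99477974 to 99493137 and Krt19 at 100140810 to 100148665. Krt20 and Krt23 are neighbours 39.8 kb apart. Between Krt7 and Krt8 lie 22 other keratin genes, of which 6 had enough counts to test, and between Krt23 and Krt19 lie 11, of which 2 did.

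Start regions from RefSeq (GRCm38.p6, 250 bases before to 50 after the start of the gene) were found for 5 of the 6 genes. That start can differ from the GENCODE gene start given above: it lies 1360 bases inside the gene for Krt7, 140 for Krt8, 36 for Krt18 and 17 for Krt23, and 3 bases outside it for Krt20. Those of Krt8 and Krt18 are shown because the levels of these partner genes stayed close together, and those of Krt20 and Krt23 because these neighbours varied most. Capitals mark matches, on either strand, to TATAAA (the core of a TATA box), GGGCGG (a GC box), TGANTCA (an AP-1 site) or TTTATG (a CDX site).
Krt8, chr15:102004293-102004592, reverse strand: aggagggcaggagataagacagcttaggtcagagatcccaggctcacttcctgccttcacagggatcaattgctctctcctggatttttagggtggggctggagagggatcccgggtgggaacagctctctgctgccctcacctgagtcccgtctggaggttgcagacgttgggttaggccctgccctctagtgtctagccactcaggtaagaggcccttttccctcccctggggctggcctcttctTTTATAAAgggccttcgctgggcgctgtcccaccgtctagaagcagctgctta
Krt18, chr15:102027966-102028265, forward strand: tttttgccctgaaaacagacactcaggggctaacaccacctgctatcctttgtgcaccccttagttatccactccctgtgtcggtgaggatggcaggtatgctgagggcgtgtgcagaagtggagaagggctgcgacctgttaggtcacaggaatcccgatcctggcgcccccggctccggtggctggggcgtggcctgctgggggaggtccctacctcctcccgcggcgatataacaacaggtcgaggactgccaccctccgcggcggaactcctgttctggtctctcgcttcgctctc
Krt20, chr11:99438104-99438403, reverse strand: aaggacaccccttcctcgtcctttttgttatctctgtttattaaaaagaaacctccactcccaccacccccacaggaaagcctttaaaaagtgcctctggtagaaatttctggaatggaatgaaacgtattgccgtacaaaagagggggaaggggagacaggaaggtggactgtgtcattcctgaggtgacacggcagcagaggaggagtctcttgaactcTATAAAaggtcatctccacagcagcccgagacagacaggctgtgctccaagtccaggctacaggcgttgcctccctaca
Krt23, chr11:99493071-99493370, reverse strand: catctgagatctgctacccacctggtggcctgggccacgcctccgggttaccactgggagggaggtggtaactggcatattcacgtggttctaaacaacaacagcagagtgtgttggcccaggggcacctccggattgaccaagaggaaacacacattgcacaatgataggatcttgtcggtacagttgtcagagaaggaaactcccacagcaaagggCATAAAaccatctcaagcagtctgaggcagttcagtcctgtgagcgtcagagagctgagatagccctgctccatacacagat
Krt8 held 2 overlapping matches to TATAAA, 1 on each strand, and Krt20 held 1. Those of Krt8 began at -3 and -1 from the RefSeq start, inside the gene as GENCODE gives it. That of Krt20 began at -29. Krt23 held 1 match to TTTATG, on the opposite strand, and Krt18 held none of the 4 motifs. The Krt7 window, not shown, held 4 matches to GGGCGG, all inside the gene as GENCODE gives it, and none to the other 3. Of all 32851 RefSeq windows of this length, 13.6% held TATAAA, 35.7% held GGGCGG, 7.81% held TGANTCA and 11.9% held TTTATG. A match is only a run of letters and does not show that a factor binds there.

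The libraries held 10145830 to 27596832 estimated counts. Null 7 lay far from the rest on the main axis of variation (29.6% of the variance) and WT 3 on the next (26.4%), so results are also given without them. By their Xist and Y-linked transcripts both came from male mice, as did null 18, and the other 6 from females. Scrib mRNA ranged from 36.9 to 102.0 CPM in the tumors labelled null and from 44.0 to 88.4 CPM in those labelled WT, so its level did not separate the labels. The highest Scrib level was that of null 7, and the remaining null tumors had 36.9 to 55.4 CPM. Null and WT tumors below means tumors as labelled. Ductal markers were at 4.74 to 6.48 log2 CPM in null and 5.40 to 6.45 in WT tumors, with none of 12 at 0 in all tumors. Fibroblast marker genes had log2 fold changes below 0 in 12 of 12 cases, with a mean level of 3.65 to 7.09 log2 CPM in null and 6.56 to 8.10 in WT tumors. The same held for 12 of 12 macrophage markers (4.29 to 5.53 in null and 5.24 to 6.79 in WT tumors), 10 of 10 endothelial markers (2.45 to 4.93 in null and 4.81 to 5.65 in WT tumors) and 9 of 9 tested T and B cell markers (-1.42 to 0.73 in null and 0.29 to 1.42 in WT tumors). At an unadjusted edgeR p under 0.05, 3 fibroblast, 9 macrophage, 2 endothelial and 3 T and B cell markers were lower in null tumors, against 10% of all genes. Without both WT 3 and null 7 the counts were 7 of 12, 10 of 12, 1 of 10 and 3 of 10 in the same order, against 6.58% of all genes, and none passed the adjusted test. No marker of these 4 lists was at 0 in all tumors, and their part in the keratin results was tested only where a covariate is named. In whole tumors fewer cells of a type and less RNA per cell cannot be told apart.

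Keratin mRNA in these tumors was almost wholly that of the 6 genes, which took 98.2% to 99.5% of all keratin counts in the tumors labelled null and 97.9% to 99.5% in those labelled WT, out of 53 annotated keratin genes. The highest level of any other keratin was 71.7 CPM, for Krt14 in tumor null 14, a gene picked out after its values were seen. Krt7, Krt8, Krt18 and Krt19 each exceeded 860 CPM in every tumor, while Krt20 and Krt23 were at most 289.99 and 151.6 CPM. CPM is the count of a gene scaled to the size of its library, with TMM factors.

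**Figure D1:**
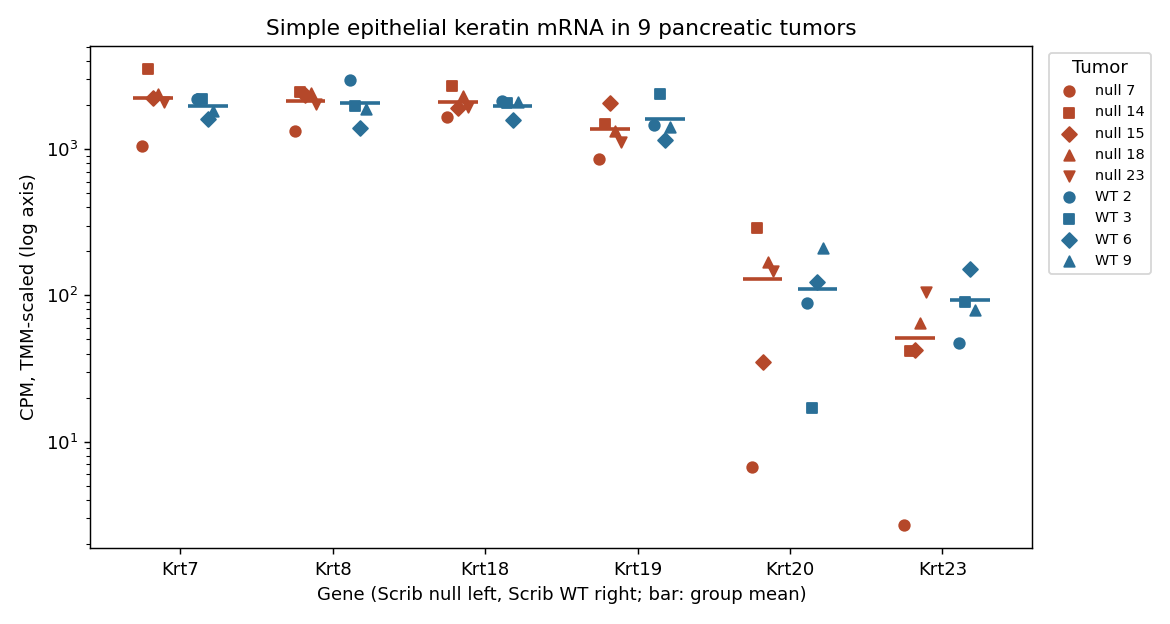
Each point is the level of a keratin in a tumor, in CPM (log axis), with Scrib null tumors on the left of each gene and Scrib WT tumors on the right; bars are group means. Krt7, Krt8, Krt18 and Krt19 lie above 860 CPM in all 9 tumors, and null 7 (red circle) has the lowest Krt20 (6.65 CPM) and Krt23 (2.67 CPM).

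Because longer transcripts give more reads, levels of different genes were compared as CPM per kb of the longest coding transcript (the transcript scale). Krt18 had the highest level, with 1465 ± 282 CPM per kb (SD, n = 5) in the tumors labelled null and 1375 ± 179.9 (SD, n = 4) in those labelled WT. Krt8 followed with 1081 ± 238 CPM per kb in null and 1049 ± 334 in WT tumors, and Krt19 with 870 ± 284 in null and 1015 ± 337 in WT tumors. Krt7 had 550 ± 217 CPM per kb in null and 479 ± 70.7 in WT tumors. Krt20 had 66.9 ± 58.9 CPM per kb in null and 56.9 ± 41.7 in WT tumors, and Krt23 had 32.8 ± 23.9 in null and 58.9 ± 27.9 in WT tumors.

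Some neighbours in this order were not separated by more than their spread. Krt18 was above Krt8 in 8 of 9 tumors, by 0.44 ± 0.25 on the log2 scale (SD over 9 tumors). Krt8 was above Krt19 in only 6 of 9, by 0.21 ± 0.41. Krt19 was above Krt7 in 9 of 9, by 0.85 ± 0.42, and Krt7 above Krt20 in 9 of 9, by 3.70 ± 1.57. Krt20 and Krt23 were not ordered, with Krt20 higher in 6 of 9 tumors and a difference of 0.28 ± 1.47. The place of Krt7 depends on the length used, since its annotated transcript has 4094 bases of which 1371 are coding. Per kb of coding length Krt7 moved to the second place, 0.11 ± 0.30 below Krt18 and 0.10 ± 0.29 above Krt8 on the log2 scale.

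The groups compared were the tumors labelled Scrib null and those labelled Scrib WT. None of the 6 keratins passed the test between the groups (edgeR quasi-likelihood, Benjamini-Hochberg adjusted p under 0.05 over all genes tested), against 0.0124% of all genes, which is 2 genes. At an unadjusted edgeR p under 0.05 the count was also 0 of 6, against 17.7% of all genes, and the groups did not separate without overlap for any of the 6, against 6.91% of all genes. DESeq2 called 0 of 6 too, against 3.58% of the 17912 genes to which it gave an adjusted p, and limma-voom 0 of 6, against 0.0124%. Of the 6 fold changes 4 were above 0, against 47.8% over all genes, and the median was 0.07 on the log2 scale, against -0.03 over all genes tested. A p above the threshold does not show equal levels, so the 95% confidence intervals are given with each gene.

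Krt8, the main type II keratin of simple epithelia, had 1336, 2453, 2336, 2421 and 2031 CPM in tumors null 7, 14, 15, 18 and 23, and 2962, 1971, 1403 and 1877 CPM in tumors WT 2, 3, 6 and 9. The groups overlapped fully, with both the highest and the next to lowest value among the WT tumors. On the log2 scale the change, null over WT, was 0.04 (SE 0.30, interval -0.62 to 0.71, edgeR adjusted p = 0.951). It was -0.10 without WT 6, and -0.01 without either null 14 or null 18.

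Krt18, its type I partner, had 1651, 2691, 1912, 2321 and 1948 CPM in tumors null 7, 14, 15, 18 and 23, and 2146, 2072, 1591 and 2096 CPM in tumors WT 2, 3, 6 and 9. It was the steadiest of the 6 genes: the highest tumor held 1.69 times the lowest. Its log2 fold change was 0.09 (SE 0.25, edgeR adjusted p = 0.862), with an interval from -0.46 to 0.64, the narrowest of the 6, and -0.01 without null 14.

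Krt7, the type II keratin of ducts, had 1043, 3542, 2219, 2362 and 2094 CPM in tumors null 7, 14, 15, 18 and 23, and 2211, 2189, 1615 and 1830 CPM in tumors WT 2, 3, 6 and 9. The lowest and the highest tumor were both labelled null, and the WT tumors lay between them. The log2 fold change was 0.20 (SE 0.34, interval -0.54 to 0.94, edgeR adjusted p = 0.767). Without null 7 it was 0.40, and without both WT 3 and null 7 it was 0.48 (edgeR adjusted p = 0.479 and 0.526). Without null 14 it was -0.02.

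Krt19, the type I keratin used to mark ducts, had 860, 1492, 2051, 1333 and 1119 CPM in tumors null 7, 14, 15, 18 and 23, and 1453, 2371, 1162 and 1410 CPM in tumors WT 2, 3, 6 and 9. WT 3 and null 15 were high, 1 from each group. Its log2 fold change was -0.22 (SE 0.32, interval -0.93 to 0.49, edgeR adjusted p = 0.724), and the sign turned without WT 3 (0.07) and without both WT 3 and null 7 (0.20). With the mean level of fibroblast and macrophage markers as a covariate, the log2 fold changes of these 4 genes were 0.44 for Krt8, 0.25 for Krt18, 0.54 for Krt7 and -0.10 for Krt19, and none passed the test (edgeR adjusted p from 0.333 to 0.874).

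**Figure D2:**
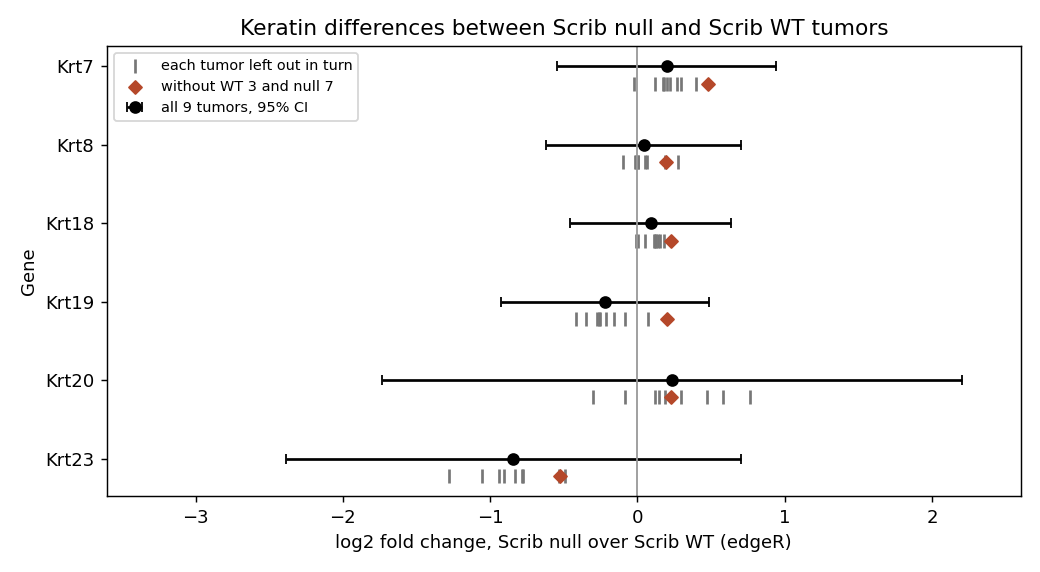
Log2 fold change of each keratin, Scrib null over Scrib WT, from the edgeR fit; circles with lines are the estimate and 95% confidence interval over all 9 tumors, ticks are the estimates with each tumor left out, and diamonds leave out WT 3 and null 7. Every interval crosses 0, and those of Krt20 (-1.74 to 2.20) and Krt23 (-2.39 to 0.70) are the widest.

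Krt20, the keratin of gut lining and urothelium, had 6.65, 289.99, 34.97, 168 and 146 CPM in tumors null 7, 14, 15, 18 and 23, and 88.0, 17.0, 123 and 210.2 CPM in tumors WT 2, 3, 6 and 9. Both groups held tumors with little Krt20, null 7 and null 15 in one and WT 3 in the other, and the highest tumor held 43.6 times the lowest. The log2 fold change was 0.23 (SE 0.89, edgeR adjusted p = 0.908), and the interval from -1.74 to 2.20 leaves its direction undetermined. With the fibroblast and macrophage covariate the log2 fold change was 1.75 (edgeR adjusted p = 0.275), and with the sex of the mouse as a covariate it was 0.72 (adjusted p = 0.692). It was 0.58 without null 7, 0.76 without WT 9, 0.47 without null 15, -0.30 without null 14 and -0.08 without WT 3.

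Krt23 had 2.67, 41.9, 42.6, 64.7 and 105 CPM in tumors null 7, 14, 15, 18 and 23, and 47.2, 90.004, 151.6 and 80.0 CPM in tumors WT 2, 3, 6 and 9. Apart from null 7, whose value rests on 53 counts, the groups overlapped. Its log2 fold change was the lowest of the 6, at -0.84 (SE 0.70, interval -2.39 to 0.70, edgeR adjusted p = 0.526), and was below 0 with each tumor left out. It was -0.53 without null 7, -0.49 without WT 6, -1.28 without null 23 and -0.52 without both WT 3 and null 7. With the fibroblast and macrophage covariate it was -0.42 (edgeR adjusted p = 0.743), and with limma-voom -1.38 (adjusted p = 0.421).

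The 6 genes fell into a steady and a variable set. Within groups the SD of log2 CPM was 0.25 for Krt18, 0.40 for Krt8, 0.46 for Krt19 and 0.50 for Krt7, against a median of 0.53 over all genes tested. It was 1.61 for Krt23 and 1.95 for Krt20. Tumor null 7 had the lowest level of 5 of the 6 genes and the next to lowest of Krt18. The other 4 tumors labelled null averaged 1.34 times its level for Krt18, 1.73 times for Krt8, 1.74 times for Krt19 and 2.45 times for Krt7, but 24.0 times for Krt20 and 23.8 times for Krt23. Without null 7, Krt20 still varied 17.1-fold over the other 8 tumors. Krt23 then varied 3.62-fold, down from 56.7-fold over all 9. The other genes varied 2.19-fold (Krt7), 2.11-fold (Krt8), 1.69-fold (Krt18) and 2.12-fold (Krt19) over the same 8.

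The mean level of 18 core epithelial genes in null 7 was 7.20 log2 CPM, within the range of 6.75 to 7.33 of the null tumors and above the 6.57 to 7.05 of the WT tumors. Not every core gene followed that mean. Epcam, an adhesion molecule of epithelial cells, had 933 CPM in null 7, the lowest of 9 tumors, where the remaining null tumors had 1207 to 1448 and the WT tumors 1007 to 1438. Cdh1, E-cadherin, had 587 CPM in null 7, where the remaining null tumors had 783 to 1079 and the WT tumors 573 to 843. Both genes were picked out after their values were seen. Its ductal markers averaged 4.74 log2 CPM, where the remaining null tumors had 5.33 to 6.48 and the WT tumors 5.40 to 6.45. Its fibroblast markers averaged 3.65, where the remaining null tumors had 6.67 to 7.09 and the WT tumors 6.56 to 8.10. The part of these markers in its low keratin levels was not tested.

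**Figure D3:**
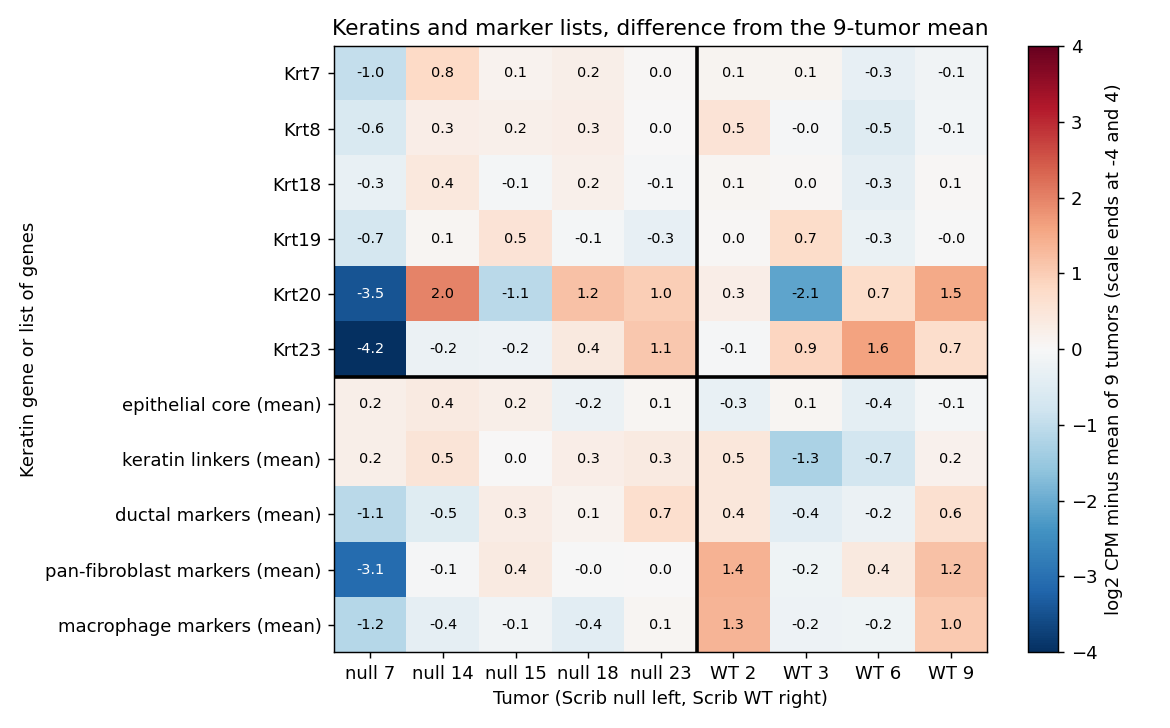
Colour and number give the difference of log2 CPM from the mean of the 9 tumors, for each keratin and for the mean of 5 gene lists, with Scrib null tumors left of the line and Scrib WT tumors right of it. Null 7 has the lowest Krt20 and Krt23 and the lowest ductal, fibroblast and macrophage lists, while its epithelial core level of 7.20 log2 CPM lies among those of the other tumors.

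Set against the core epithelial genes of the same tumor, each keratin had a lower mean in the null tumors, as a description with no test. For Krt7 and Krt20 that order rested on null 7. The core mean itself was higher in null tumors, 7.11 ± 0.22 log2 CPM against 6.80 ± 0.22 in WT tumors (SD, n = 5 and 4). The fold changes of 4 of the 6 keratins, not set against the core, were above 0. On the log2 scale Krt8 was 3.90 ± 0.47 above the core mean in null tumors and 4.15 ± 0.48 in WT tumors (SD, n = 5 and 4), and Krt18 was 3.91 ± 0.36 above it in null and 4.14 ± 0.19 in WT tumors. Krt7 was 3.92 ± 0.67 above it in null and 4.13 ± 0.22 in WT tumors, and Krt19 was 3.25 ± 0.49 in null and 3.79 ± 0.27 in WT tumors. Krt20 lay at -0.98 ± 2.26 in null and -0.49 ± 1.70 in WT tumors. Krt23 lay at -2.11 ± 2.14 in null and -0.39 ± 0.75 in WT tumors. The ranges of the groups overlapped for all 6 genes. Without null 7 the difference, null minus WT, was 0.07 for Krt7, -0.07 for Krt8, -0.13 for Krt18, -0.37 for Krt19, 0.37 for Krt20 and -0.81 for Krt23. With the core mean as a covariate in the edgeR fit, the log2 fold change was 0.07 for Krt7, 0.10 for Krt8, 0.03 for Krt18, -0.49 for Krt19, 0.39 for Krt20 and -0.41 for Krt23, and none passed the test (adjusted p from 0.536 to 0.970).

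Ratios within a tumor do not depend on how libraries are scaled. Krt18 mRNA per length was 1.68, 1.49, 1.11, 1.31 and 1.31 times that of Krt8 in tumors null 7, 14, 15, 18 and 23, and 0.987, 1.43, 1.54 and 1.52 times in tumors WT 2, 3, 6 and 9. WT 2 was low in this ratio and held the most Krt8. This ratio of the partner genes had the smallest spread of the 6 computed, an SD of 0.25 on the log2 scale over 9 tumors. Its group means, 0.45 ± 0.22 in null and 0.43 ± 0.30 in WT tumors, differed by 0.02 (p = 0.952 in an exact two-sided permutation test; adjusted for the 6 ratios, 0.952). The difference was -0.13 without WT 2, -0.06 without null 7 and -0.01 without null 14.

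The duct keratins differed a little more, within the spread. The log2 ratio of Krt7 to Krt19, per transcript length, was -0.70 ± 0.47 in null and -1.04 ± 0.31 in WT tumors, a difference of 0.34 (exact two-sided permutation p = 0.254, adjusted p = 0.635). The sign of a ratio with Krt7 depends on the length used. Per kb of coding length its median over 9 tumors was 1596 CPM, above the 1166 of Krt19 and the 1382 of Krt8. The difference between groups does not depend on the length. The log2 ratio of Krt19 to Krt8 was -0.34 ± 0.28 in null and -0.05 ± 0.53 in WT tumors (exact two-sided permutation p = 0.317, adjusted p = 0.635). That of Krt7 to Krt8 was -1.04 ± 0.32 in null and -1.09 ± 0.28 in WT tumors (p = 0.841, adjusted p = 0.952, same exact permutation test), a difference of 0.05 that was -0.08 without WT 2 or without null 14.

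Krt20 and Krt23 varied widely relative to Krt8. Krt20 mRNA per length was 0.00513, 0.12, 0.0152, 0.0705 and 0.0728 times that of Krt8 in tumors null 7, 14, 15, 18 and 23, and 0.0302, 0.00885, 0.0894 and 0.114 times in tumors WT 2, 3, 6 and 9. The log2 ratio to Krt8 was -4.86 ± 1.90 in null and -4.62 ± 1.69 in WT tumors for Krt20, a difference of -0.24 (exact two-sided permutation p = 0.889, adjusted p = 0.952). For Krt23 it was -5.69 ± 1.74 in null and -4.22 ± 1.13 in WT tumors, a difference of -1.47 (exact two-sided permutation p = 0.206, adjusted p = 0.635) that was -0.74 without null 7. The Krt20 difference turned to 0.45 without null 7, 0.14 without WT 6, 0.26 without WT 9 and 0.05 without null 15. The smallest p this test can give with 5 and 4 tumors is 0.0159.

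**Figure D4:**
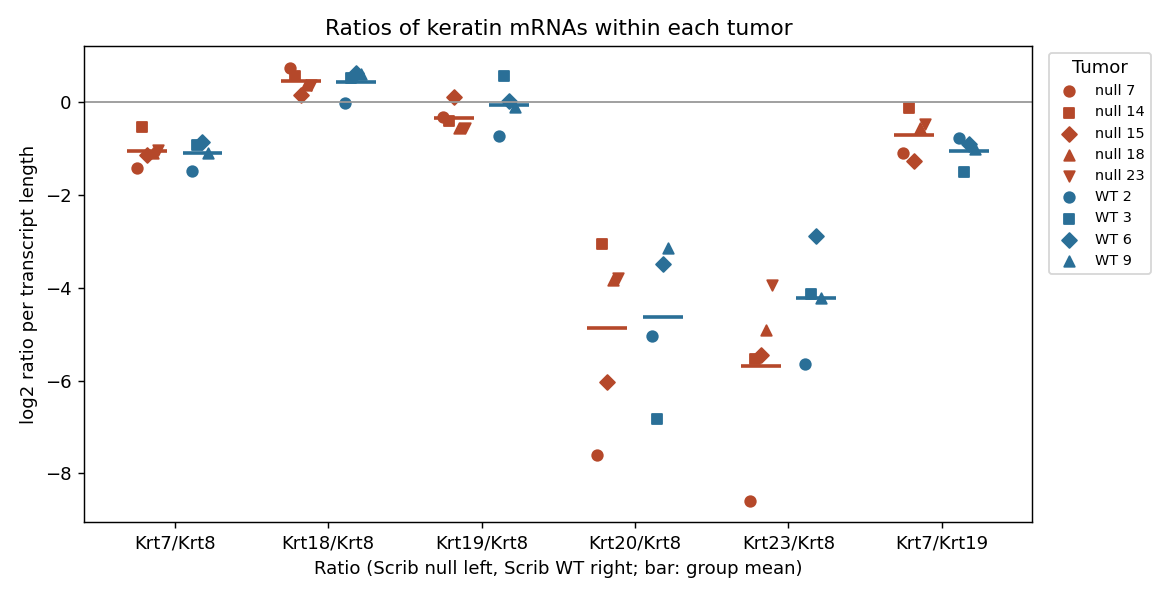
Log2 ratio of keratin mRNAs per transcript length within each tumor, with Scrib null tumors on the left of each ratio and Scrib WT tumors on the right; bars are group means. Krt18/Krt8 stays between -0.02 and 0.75, whereas Krt20/Krt8 runs from -7.61 to -3.06 and Krt23/Krt8 from -8.59 to -2.89.

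The genes whose pattern over the 9 tumors was most like each keratin were found by the SD of the log2 ratio between them, among 13762 other tested protein-coding genes. These values share the same 9 libraries and their scaling, and are a description. Nearest to Krt8 were Gosr2, Slc35b1 and Slc39a13 (SD 0.157, 0.169 and 0.18), and nearest to Krt18 were Cyld and Nfkbib (0.118 and 0.129). Krt18 itself was at 0.245 from Krt8, with 32 genes closer to Krt8 and 239 closer to Krt18 than that. Nearest to Krt7 were Edem1, Sept6 and Mdm1 (0.2, 0.201 and 0.202), with Krt8 at 0.287 and 16 genes closer than it. Nearest to Krt19 were Ramp1, Pigu and Gabarap (0.138, 0.2 and 0.206).

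For the variable keratins no gene came that close, but this SD grows with the spread of the keratin itself. Its median over all 13762 genes was 1.87 for Krt20 and 1.76 for Krt23. For the steady keratins that median was 0.593 for Krt18, 0.662 for Krt8, 0.727 for Krt19 and 0.732 for Krt7. Nearest to Krt20 were Tnik and Prdm16 (SD of the log2 ratio 0.645 and 0.764), and nearest to Krt23 were Ctse, the aspartic protease cathepsin E, then Tagln and Serpinb6b (0.502, 0.536 and 0.568). Krt23 was at 1.47 log2 CPM in null 7 and at 5.39 to 7.24 in the other tumors, so null 7 weighs heavily in its SD. The nearest genes were not sought without that tumor. Although they are neighbours on chromosome 11, Krt20 and Krt23 stood at 1.47 from each other, with 869 genes closer to Krt20 and 2031 closer to Krt23 than that.

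Proteins that bind keratin filaments or tie them to junctions gave no adjusted call (0 of 17 tested). Of these 17 genes 14 had a fold change above 0. At an unadjusted edgeR p under 0.05, 6 were higher in null tumors, against 7.64% of all genes, and 0 were lower, against 10% of all genes. Flg2 was at 0 in all tumors. The median log2 fold change was 0.63, against -0.03 over all genes. Without both WT 3 and null 7, the count at an unadjusted p was 3 of 17, against 4.75% of all genes, and the median 0.44.

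Evpl, envoplakin, a plakin of the cell cortex, had 54.0, 49.4, 50.7, 28.5 and 45.6 CPM in tumors null 7, 14, 15, 18 and 23, and 23.9, 10.0, 9.53 and 23.8 CPM in tumors WT 2, 3, 6 and 9. Fbf1, which encodes a keratin-binding protein also found at the base of cilia, had 71.0 ± 6.77 CPM in null and 36.9 ± 11.5 in WT tumors (SD, n = 5 and 4). For both genes every null tumor lay above every WT tumor, with log2 fold changes of 1.44 for Evpl and 0.94 for Fbf1 (edgeR adjusted p = 0.197 for both). The groups did not overlap for 2 of the 17 genes, against 6.91% of all genes. These 2 genes are named because they had the smallest p of the list. The junction plaque genes Pkp3, plakophilin 3, and Jup, plakoglobin, overlapped between groups and had log2 fold changes of 0.68 and 0.86 (edgeR adjusted p = 0.237 for Pkp3 and 0.243 for Jup). WT 3 and WT 6 had the lowest mean levels of this list, 4.37 and 4.92 log2 CPM, where the null tumors had 5.66 to 6.16. WT 2 and WT 9, at 6.10 and 5.82, lay within the range of the null tumors. In WT 3 and WT 6 the 100 highest genes also took the most of all counts, 32.5% and 25.8%, against 18.8% to 22.9% in the other tumors. The part of this in the linker levels was not tested.

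The core epithelial genes had 4 of 18 higher and 1 lower at an unadjusted edgeR p under 0.05, against 7.64% higher and 10% lower over all genes, and 0 passed the adjusted test. Without both WT 3 and null 7 these counts were 4 and 1 again, against 4.75% and 6.58% of all genes. Those with the smallest p were Esrp1 and Grhl2, an epithelial splicing factor and a transcription factor of epithelial identity, with log2 fold changes of 1.02 and 0.93, the membrane serine proteases Tmprss2, at -1.24, and St14, at 0.64 (edgeR adjusted p from 0.201 to 0.237). Of the desmosomal cadherins 3 of 7 were tested and none had an unadjusted edgeR p under 0.05, while Dsg1a, Dsg4 and Dsc1 were at 0 in all tumors. The main one by level was Dsg2, with 94.1 ± 14.2 CPM in null and 71.3 ± 37.6 CPM in WT tumors.

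Among 16 tested transcription factors linked to simple keratin genes none passed the adjusted test, and the median log2 fold change was -0.08. Cdx2, an intestinal factor, had 5.95 ± 9.65 CPM in null and 7.14 ± 4.57 CPM in WT tumors. Markers of the intestinal lining were at 1.84 to 5.33 log2 CPM in the tumors labelled null and 5.12 to 5.95 in those labelled WT, with 5 of 12 genes tested, all below 0 and 2 at an unadjusted edgeR p under 0.05, namely Alpi and Lgals4, against 10% of all genes lower. Without both WT 3 and null 7, 3 of 6 were lower at that p, against 6.58% of all genes. The lowest intestinal level was that of null 7, which also had the least Krt20, while WT 3 had the highest at 5.95 with little Krt20.

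Keratins of stratified epithelia and other intermediate filament genes gave no adjusted call either. Of 13 tested stratified keratins none had an unadjusted edgeR p under 0.05, and the median log2 fold change was -0.23. Without both WT 3 and null 7, 1 of 14 was higher at that p, against 4.75% of all genes. Krt5, a basal cell keratin, had 33.6 CPM in null 14, 4.00 CPM in null 15 and 0 to 0.494 CPM in null 7, null 18 and null 23, against 0.0954 to 0.91 CPM in the WT tumors. Of 12 other intermediate filament genes 4 were higher at an unadjusted edgeR p under 0.05, against 7.64% of all genes. They were the neuronal genes Ina (1.07 ± 0.762 CPM in null and 0.119 ± 0.083 in WT tumors) and Nefh (1.90 ± 1.53 CPM in null and 0.477 ± 0.283 in WT tumors), and the lamins Lmnb1 and Lmnb2, of the nuclear envelope. Without both WT 3 and null 7, 2 of 13 were higher and 1 lower at that p, against 4.75% and 6.58% of all genes. Vim, the mesenchymal filament, had 173 to 614 CPM in null and 283 to 1575 CPM in WT tumors.

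**Figure D5:**
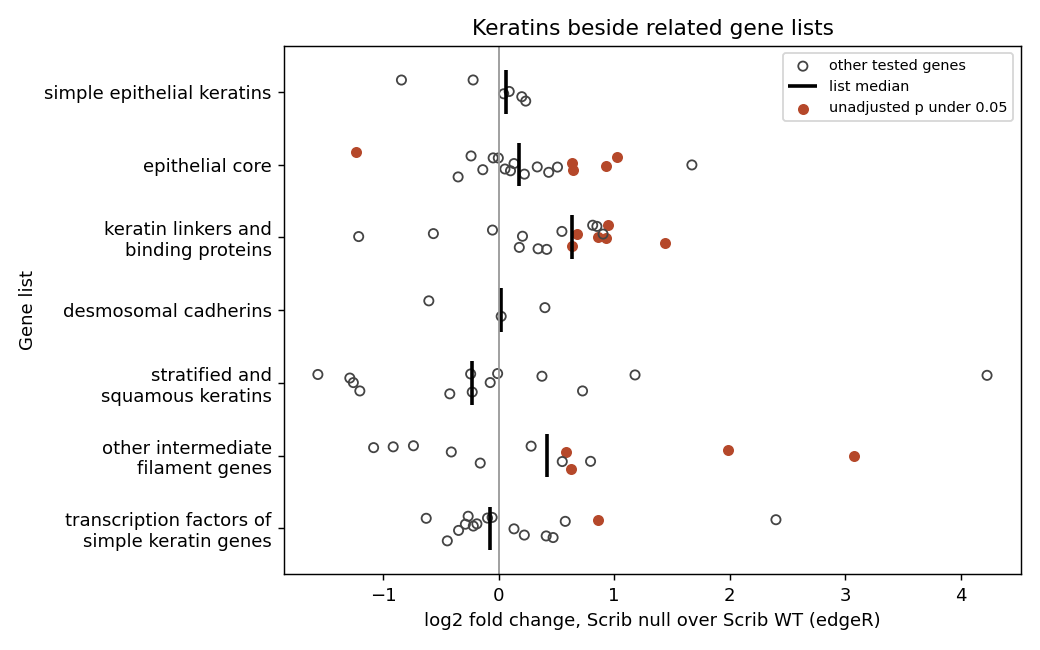
Each point is the log2 fold change of a tested gene, Scrib null over Scrib WT, in the keratins and 6 related lists; filled points have an unadjusted edgeR p under 0.05 and black bars are list medians. The keratin median is 0.07 and no keratin is filled, whereas 6 of 17 keratin linkers are filled and their median is 0.63. Of the WT tumors only WT 3 and WT 6 had a mean linker level below the range of the null tumors.

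Markers of other cells that make these keratins were followed too. Acinar markers, which would bring Krt8 and Krt18, were at -1.76 to 2.86 log2 CPM in null and -1.63 to 3.97 in WT tumors, with Prss1 at 0 in all tumors. With their mean as a covariate the log2 fold changes of Krt8 and Krt18 were 0.07 and 0.11. Mesothelium, which also makes Krt7, Krt8, Krt18 and Krt19, had marker levels of -0.78 to 4.00 log2 CPM in null and 0.86 to 2.95 in WT tumors, highest in null 15, and no marker was at 0 in all tumors. Tuft cell markers, a cell type rich in Krt18, were at 0.31 to 1.99 in null and 0.96 to 3.11 in WT tumors, with 4 of 7 tested genes lower at an unadjusted edgeR p under 0.05, against 10% of all genes, or 2 of 7 without both WT 3 and null 7, against 6.58%. Hepatocyte markers, of another cell with Krt8 and Krt18, were at -0.38 to 1.17 log2 CPM in null and 0.84 to 2.98 in WT tumors, with 1 of 5 tested genes higher and 2 lower at that p over all tumors, against 7.64% higher and 10% lower of all genes. The part of mesothelial cells, tuft cells and hepatocytes in the keratin levels was not tested.

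Near-identical copies could share reads with Krt8 and Krt18. The processed pseudogene Krt8-ps matched 941 bases of Krt8 at 98.6% identity and had at most 15.6 counts in a tumor, or 0.027% of those of Krt8. Gm5200 matched Krt18 at 90.2% identity over 1269 bases and had at most 3 counts. No copy with at least 90% identity over 200 bases was found for the other 4. Gm671 and Gm36026, on the opposite strand, overlap Krt7 and Krt8 and had at most 49 and 42 counts, at most 0.126% of the keratin's own. The sources used here do not say whether counting kept strand.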

How the data were processed

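RNA of 9 frozen tumors was sequenced as mRNA libraries, per the labels' protocols. The deposited table held estimated counts, 1 column per tumor, not normalized. The submitters' processing notes name GRCm38 and mm10 as builds, with Salmon 1.4.0 and DESeq 2 among tools. Names and coordinates came from GENCODE M21 on GRCm38, which named 54200 of 54453 rows, and 23854 rows were at 0 in all tumors.

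Counts were rounded, which moved none by more than 0.5. Genes were kept by filterByExpr (minimum count 10, total 15). Groups were compared by the quasi-likelihood test of edgeR 4.0.16 (R 4.3.3, TMM scaling), and the SE was the fold change over the square root of F. Log2 CPM used a prior count of 2, ratios 2 counts per gene. The spread between tumors (common biological coefficient of variation 0.494), more than counting, limits precision. Ratios were compared with scipy 1.17.1, over 126 splits into 5 and 4. Copies were sought with BLASTN 2.17.0. DESeq2 1.42.0, limma 3.58.1, scalings, filters, covariates and left-out tumors were alternatives. Counts of list members without both WT 3 and null 7, and keratins relative to the core genes without null 7, were alternatives chosen after seeing the data.

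The members and the 16 other gene lists were chosen with earlier results of these data known. Genes named were the 6 keratins, Scrib, up to 4 members with the smallest p per list described, and the 3 nearest patterns, of which some are not reported here; Cdx2, Vim, Krt14, Epcam, Cdh1 and the copies were added after their values were seen.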

Additional observations from a re-analysis of the deposited data

Results flagged for a closer look

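Among 24 group checks, of which chance flags about 1 in 20 (5%), 3 held a tumor far from the rest of its group. Krt23 was at 1.47 log2 CPM in tumor null 7, and the remaining null tumors had 5.39 to 6.72. Krt18 was at 10.64 log2 CPM in tumor WT 6, and the remaining WT tumors had 11.02 to 11.07. The log2 ratio of Krt18 to Krt8 per length was -0.018 in tumor WT 2, and the remaining WT tumors had 0.52 to 0.63. Without WT 2 the difference in that ratio, null minus WT, was -0.13 in place of 0.02.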

How the results depend on the processing

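No keratin passed the threshold under any alternative run, the lowest adjusted p being 0.275, and 108 of 120 alternative fold changes kept their sign. With upper quartile scaling Krt8 and Krt18 had log2 fold changes of -0.040 and -0.0040, where the median of all genes was -0.13 in place of -0.03 and 960 genes were higher and 2038 lower at an unadjusted p under 0.05, in place of 1236 and 1623. Krt20 was at -0.19 with limma-voom, and Krt19 at 0.20 without both WT 3 and null 7. With each tumor left out in turn, log2 fold changes ran from -0.022 to 0.40 for Krt7, -0.10 to 0.28 for Krt8, -0.012 to 0.18 for Krt18, -0.42 to 0.072 for Krt19, -0.30 to 0.76 for Krt20 and -1.28 to -0.49 for Krt23. The log2 ratios, null minus WT, ran from -0.084 to 0.14 for Krt7/Krt8, -0.13 to 0.092 for Krt18/Krt8, -0.51 to -0.08 for Krt19/Krt8, -0.97 to 0.45 for Krt20/Krt8, -1.94 to -0.74 for Krt23/Krt8 and 0.19 to 0.48 for Krt7/Krt19. Krt18/Krt8 was -0.028 without both WT 3 and null 7, and 56 of 66 alternative ratios kept their sign. The 0 higher and 2 lower genes over the whole table were 223 and 419 with DESeq2, 1 and 6 with no filter, 1 and 1 with limma-voom, 0 and 1 with the acinar, the fibroblast and macrophage or the sex covariate, 0 and 0 with the epithelial core covariate or without both tumors, and 0 and 0 to 1 with each tumor left out. The cause of these changes was not tested. No paired analysis was possible because the groups share no replicate number.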
